A study of Rattus norvegicus with 6 samples.

Results

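Netrins are laminin-related guidance proteins, and 9 genes of the netrin system were examined: the ligand genes Ntn1 and Ntng1, the receptor genes Dcc, Neo1, Unc5b and Unc5c, and the Flrt1, Flrt2 and Flrt3 genes, whose products bind UNC5 receptors. They are 9 of the 14217 genes named by a probe set with exactly 1 gene symbol, and they are covered by 15 of 20826 such probe sets. The list was chosen from what is known of the family together with earlier results of these same arrays, in which Ntng1 stood among the larger differences between GLI1-transformed and parental cells. For that comparison the members' values are therefore given as a description, with no p-value. Whether differences between clones also entered the choice is not known, so the adjusted p-values given for clones are not independent support.

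RK3E is a rat kidney epithelial line made immortal with an adenovirus oncogene, and GLI1 is a zinc finger transcription factor through which Hedgehog signals act. Of the 6 Affymetrix arrays, 4 carried RNA of RK3E cells that had been transfected with a GLI1 expression construct and grown on from isolated transformed foci, and 2 carried RNA of parental RK3E cells. All were grown in medium with serum. Among the GLI1 arrays 1 is labelled clone I (replicate 2), 2 are clone II (replicates 1 and 2) and 1 has no clone named (replicate 1), so that the 4 arrays stand for few transformed lines, and the array with no clone named and the clone I array are called the other GLI1 arrays. The labels call the samples biological replicates but do not say how cultures were kept apart, so the errors and p-values cover the spread among these arrays alone, which may be technical.

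Netrin-1, the product of Ntn1, is secreted and guides growing axons and migrating cells; in the embryo it is made by the floor plate of the neural tube, a cell group that forms under Sonic hedgehog. DCC and neogenin (Neo1) mediate attraction to it and UNC5 proteins mediate repulsion, and DCC and UNC5 proteins are also known as dependence receptors, which promote cell death when no ligand is bound. Netrin-G1 (Ntng1) is tethered to the membrane and binds a leucine-rich repeat partner, NGL-1, in place of DCC or UNC5. FLRT proteins are leucine-rich repeat membrane proteins that bind UNC5 receptors and latrophilins and act with FGF receptors.

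Array signal is given on a linear scale as deposited, and log2 signal where means are compared. Trimmed mean signal (2% off each end) was 2500.7 to 2500.8 on all 6 arrays, and medians ran from 568 to 696. The introduced factor's own gene, Gli1, had a log2 signal of 11.71 to 13.15 on the GLI1 arrays and 5.17 to 6.50 on the parental arrays. For GAPDH the ratio of 3' to 5' signal, which rises as RNA breaks down, was 7.52 on clone II replicate 1 and 3.66 on parental replicate 1, against 1.39 to 2.09 elsewhere. Of 8 kidney epithelial markers 2, Krt8 and Epcam, passed the filter on dim probe sets, and the defining markers Cdh1, Cdh16, Pax2 and Pax8 lay below it. The summed signal of 5 fibroblast markers was 98853 to 110229 on parental arrays and 1360 to 4738 on GLI1 arrays, with Col1a1 and Col3a1 carrying the parental level. The log2 difference (GLI1 minus parental) was -5.51 for Col1a1 and -7.03 for Col3a1. It was -0.06 for Pdgfra, and 0.03 and 0.66 for Dcn and Lum, which lay below the filter. The summed signal of 5 neuronal and glial markers was 1085 to 1116 on parental arrays. On GLI1 arrays it was 855 to 4216, with Rbfox3 carrying the high end. For 3 measured endothelial markers it was 662 to 667 on parental and 444 to 482 on GLI1 arrays, and for 4 immune markers 2111 to 2647 and 701 to 1500. The endothelial markers all lay below the filter and differed in direction. Their log2 differences (GLI1 minus parental) were 2.32 for Pecam1, -1.19 for Kdr and -1.01 for Tek. Of the immune markers only Cd14 passed the filter, at -1.82, while Cd68 gave -1.57, Ptprc 0.13 and Cd3e 0.70. In bulk RNA a change in the share of cells and a change in RNA per cell cannot be told apart, and the part of these differences in the results below was not tested.

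The filter kept probe sets whose mean log2 signal over the 6 arrays was above 8.33, a signal of 322. Of the 15 member probe sets 10 passed it, covering 7 genes. Dcc and Unc5c lay below it and have values but no test. For each gene the probe set with the highest mean is described first. Ntng1 and Flrt1 passed only through the arrays on which they are high, since all their other arrays lie under 322.

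RefSeq promoter windows (GRCr8, the 250 bases before the start site of the promoter table) were found for 7 members: Ntng1, Unc5b, Dcc, Neo1, Flrt1, Flrt2 and Flrt3. That start site lay 68283 bases from the annotated outer end of the gene for Flrt1, 1325 for Flrt2, 485 for Dcc and 53 for Flrt3, so that these windows do not lie directly before the outermost start. They were searched on both strands for GACCACCCA, the consensus that GLI factors bind, and for the shorter CCACCC it contains. The consensus was in 0 of the 7 windows, and in 0.338% of 33469 windows of the table. The shorter motif was in 2 of the 7, Neo1 and Flrt2, against 26.1% of all windows. The windows of Ntng1 and Neo1 are shown as those of a ligand gene far above parental cells and of a receptor gene below them, both beginning within 6 bases of the annotated end of the gene. Ntng1 lies on the minus strand at chr2:200515032-200515281 and Neo1 on the minus strand at chr8:68322153-68322402. Capitals mark the shorter motif, which starts 12 bases before the start of Neo1 and is not in the Ntng1 window.
Ntng1: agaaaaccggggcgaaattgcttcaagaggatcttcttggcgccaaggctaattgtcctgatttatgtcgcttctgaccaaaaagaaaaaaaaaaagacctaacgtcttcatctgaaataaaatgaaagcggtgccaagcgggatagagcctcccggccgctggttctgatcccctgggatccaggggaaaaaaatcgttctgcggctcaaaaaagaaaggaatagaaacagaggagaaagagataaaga
Neo1: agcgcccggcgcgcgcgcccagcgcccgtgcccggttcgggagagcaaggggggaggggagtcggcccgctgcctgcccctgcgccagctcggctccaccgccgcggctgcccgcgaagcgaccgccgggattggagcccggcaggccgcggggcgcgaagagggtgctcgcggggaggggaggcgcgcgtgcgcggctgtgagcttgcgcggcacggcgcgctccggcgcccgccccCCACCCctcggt
Of these bases 44.8% are G or C for Ntng1 and 81.6% for Neo1, where the median over all windows was 51.2%. The Ntng1 window held 11 CpG dinucleotides and the Neo1 window 43, against a median of 5. Motif matches describe the letters of these windows, and binding was not measured.

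Of the ligand genes, Ntn1 and Ntng1 both had higher signal on every GLI1 array than on either parental array. The bright Ntn1 probe set, 1376128_at, gave a signal of 26479 where no clone is named, 20614 in clone I, and 17669 and 25966 in clone II (replicates 1, 2), against 1282 and 1402 in parental cells (replicates 1, 2). The 4 GLI1 arrays lay close together and far above the parental pair. Mean log2 signal was 14.45 ± 0.28 (SD, n = 4) in GLI1 cells and 10.39 ± 0.09 (SD, n = 2) in parental cells, a difference of 4.06 (SE 0.21), or 16.7-fold. With any 1 array left out the log2 difference stayed between 3.98 and 4.17.

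The other 2 probe sets of Ntn1 were dim and did not show a difference of this size. Probe set 1398269_at had a signal of 444, 400, 217 and 783 on the GLI1 arrays, in the order above, and 283 and 270 on the parental arrays, so that the groups overlapped. Its log2 difference was 0.59 (SE 0.51) and it was not called. Probe set 1368880_at, below the filter, had a signal of 50.4 to 139 on GLI1 arrays and of 22.7 and 23.1 on parental arrays, with no overlap. The stretch of transcript that each probe set covers was not examined here.

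Ntng1 has 1 probe set, 1376311_at, with a signal of 3102 where no clone is named, 2798 in clone I and 2057 and 3281 in clone II, against 214 and 14.7 in parental cells. The GLI1 arrays were alike, whereas the parental arrays differed from each other and were both dim. Mean log2 signal was 11.43 ± 0.30 (SD, n = 4) and 5.81 ± 2.73 (SD, n = 2), a difference of 5.63 (SE 0.84) or 49.4-fold. The size of this fold rested on the dim parental signals: it was 12.9-fold without parental replicate 2, 188-fold without parental replicate 1 and 26.1-fold with 32 added to each signal before the log. Parental replicate 1, the brighter of the pair for Ntng1, is also the parental array with the higher GAPDH ratio.

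**Figure D1:**
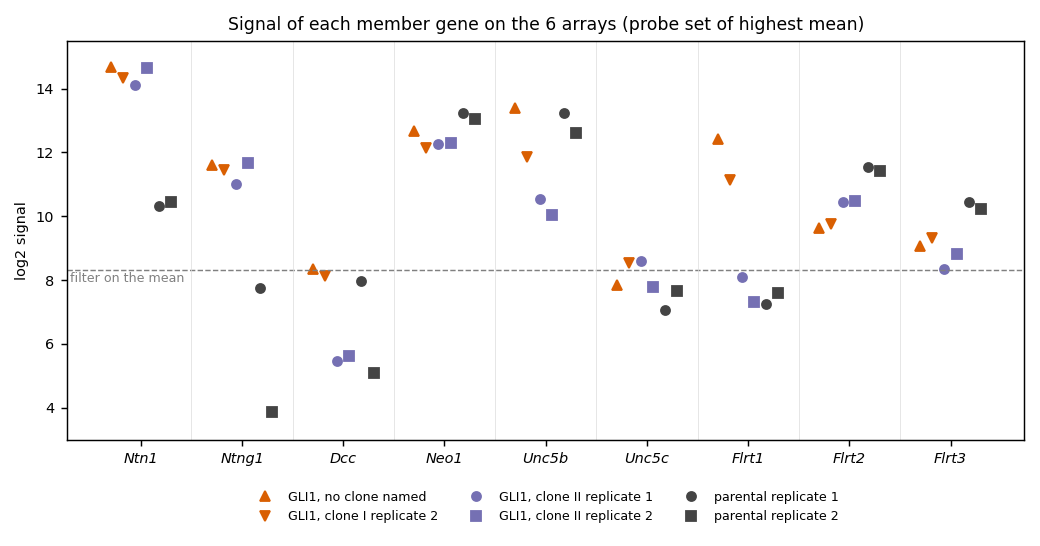
Log2 signal (vertical axis) of the probe set of highest mean for each of the 9 member genes (horizontal axis), with 1 point for each of the 6 arrays; the dashed line is the filter on the mean at 8.33. Ntn1 and Ntng1 are high on all 4 GLI1 arrays, Flrt1 is high on the array with no clone named and on clone I alone, and Unc5b is lowest on the 2 clone II arrays.

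Of the receptor genes, Neo1 was lower on every GLI1 array than on either parental array, while Unc5b was low in clone II in particular. The brightest Neo1 probe set, 1392770_at, gave 6490 where no clone is named, 4492 in clone I and 4913 and 5075 in clone II, against 9627 and 8541 in parental cells. Mean log2 signal was 12.34 ± 0.23 (SD, n = 4) in GLI1 cells and 13.15 ± 0.12 (SD, n = 2) in parental cells, a difference of -0.80 (SE 0.20), or 1.75-fold lower. A second Neo1 probe set, 1371056_at, gave 458 to 779 on GLI1 arrays and 1305 and 1385 on parental arrays, a log2 difference of -1.10 (SE 0.31). The groups did not overlap for either. The remaining one, 1375511_at, lay below the filter with overlapping signals of 6.8 to 167 and of 125 and 216. With arrays centred on their median the log2 difference of the brightest probe set was -0.64 and its call was lost.

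Unc5b encodes a receptor for repulsion that is also prominent in blood vessels. Its brighter probe set, 1393799_at, gave 10666 where no clone is named, 3746 in clone I and 1489 and 1054 in clone II, against 9638 and 6212 in parental cells. The first of these lay above both parental arrays, clone I lay below them, and clone II was lowest. The dimmer probe set, 1369235_at, gave 1718, 1325, 348 and 680 on the GLI1 arrays in the same order, and 1927 and 1489 on the parental arrays. For the brighter probe set the log2 difference between GLI1 and parental cells was -1.46 (SE 0.78), the groups overlapped and the difference was not called. Leaving out the array of unnamed clone gave -2.10, which was called.

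Dcc and Unc5c were dim throughout. Dcc (1369339_at) gave 325 where no clone is named, 282 in clone I and 44.2 and 49.5 in clone II, against 250 and 34.1 in parental cells. The parental arrays thus spanned nearly the whole range seen among GLI1 arrays, and no direction between GLI1 and parental cells can be read. Unc5c (1382201_at) had a signal of 221 to 385 on GLI1 arrays and of 133 and 201 on parental arrays. These groups did not overlap, with a log2 difference of 0.83 below the filter. The second Unc5c probe set, 1384506_at, gave 14.0 to 166 on GLI1 arrays and 68.7 and 5.8 on parental arrays, which overlap.

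The Flrt genes went apart. Flrt2 (1390306_at) gave 793 where no clone is named, 872 in clone I and 1388 and 1415 in clone II, against 2993 and 2750 in parental cells. All GLI1 arrays lay below both parental arrays, and the log2 difference was -1.41 (SE 0.31), 2.66-fold lower. Flrt3 (1378057_at) had a signal of 542, 643, 325 and 450 on the GLI1 arrays in that order, and 1384 and 1211 on the parental arrays. Its log2 difference was -1.45 (SE 0.35), 2.73-fold lower, again with no overlap.

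Flrt1 (1384304_at) followed neither. Its signal was 5429 where no clone is named, 2237 in clone I and 277 and 160 in clone II, against 153 and 191 in parental cells. The other GLI1 arrays were thus far above the rest, and clone II overlapped the parental arrays. Against parental cells, mean log2 signal was higher by 4.35 (20.4-fold) in the other GLI1 arrays and by 0.30 (1.23-fold) in clone II. Over all 4 GLI1 arrays the log2 difference was 2.33 (SE 1.25), the SD among GLI1 arrays was 2.42, and the difference was not called.

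In the limma fit across 18625 probe sets, a call is a Benjamini-Hochberg adjusted p under 0.05. Of the 7 tested member genes 2 were called higher in GLI1 cells (Ntn1 and Ntng1), where 5.84% of all tested probe sets were, and 3 were called lower (Neo1, Flrt2 and Flrt3), where 7.25% were. The remaining 2, Unc5b and Flrt1, were not called. Among the tested member genes those 2 above and 3 below were also the ones whose GLI1 arrays all lay on 1 side of both parental arrays, as 19.0% of all tested probe sets did above and 20.2% below. Since the list was drawn up with this comparison known, nothing is read from these counts. The 3 lower calls were all lost without parental replicate 1 or without parental replicate 2, and without clone II replicate 2 Flrt2 alone was called lower. Dropping clone I, or clone II replicate 1, also ended the call of Neo1. The median log2 difference was -0.80 over the 7 tested member genes and 0.005 over all tested probe sets.

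Clone II was then set against the other GLI1 arrays, a comparison that uses parental arrays only to estimate the spread. Flrt1 was lower in clone II: mean log2 signal was 7.72 ± 0.56 (SD, n = 2) against 11.77 ± 0.90 (SD, n = 2), a difference of -4.05 (SE 0.53), or 16.6-fold. Since Flrt1 was tested through the same arrays on which it is high, this difference is a description, and its adjusted p (0.0436 with the filter, 0.0649 with none, limma) is not read as support. It was 1 of 7 tested member genes called lower, where 0.113% of all tested probe sets were, and 0 member genes were called higher by limma, where 0.0161% were. At an unadjusted p under 0.05 the member genes numbered 2 lower and 1 higher, where 5.01% and 3.64% of all tested probe sets were, and Flrt1 is 1 of the 2. The call of Flrt1 was lost in most settings: its adjusted p was 0.071 without clone II replicate 1, 0.131 without clone II replicate 2, 0.102 and 0.0984 without parental replicate 1 or 2, 0.0501 with quantile normalization and 0.118 without the intensity trend. It was 0.112 without both arrays of highest GAPDH ratio, where the log2 difference was -4.45. When the array of unnamed clone was dropped, Flrt1 lay below the filter.

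Unc5b differed in the same direction without a call. Mean log2 signal was 10.29 ± 0.35 (SD, n = 2) in clone II and 12.63 ± 1.07 (SD, n = 2) in the other GLI1 arrays, a difference of -2.34 (95% interval -3.40 to -1.27, adjusted p = 0.159, limma). The second probe set gave -1.63 (adjusted p = 0.213), and for both the clone II arrays lay below the other GLI1 arrays. The size of the first difference depended on which of the other GLI1 arrays was kept. It was -3.09 without clone I, and -1.58 when the array of unnamed clone was dropped. Dcc lay below the filter and had no test. Its means were 5.55 ± 0.12 (SD, n = 2) in clone II and 8.24 ± 0.14 (SD, n = 2) in the other GLI1 arrays. The 2 parental arrays alone gave Dcc signals of 250 and 34.1, so no clone difference is read for it.

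For the tested genes whose GLI1 arrays all lay on 1 side of the parental arrays, estimated differences between clones were smaller. That grouping itself favours GLI1 arrays that are alike, so nothing is read from the contrast with Flrt1 and Unc5b. The log2 difference was -0.13 for Ntn1 (95% interval -0.69 to 0.43, adjusted p = 0.926, limma), and it ran from -0.40 to 0.15 with 1 array left out. It was -0.11 for Neo1 (-0.64 to 0.42, 0.931), with its sign changing under some settings. Ntng1 gave -0.18 with a wide interval of -2.50 to 2.13 (0.975), its sign also changing. Flrt2 gave 0.75 (0.16 to 1.34, 0.444), both clone II arrays lying above the other GLI1 arrays, and Flrt3 gave -0.63 (-1.46 to 0.21, 0.691).

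**Figure D2:**
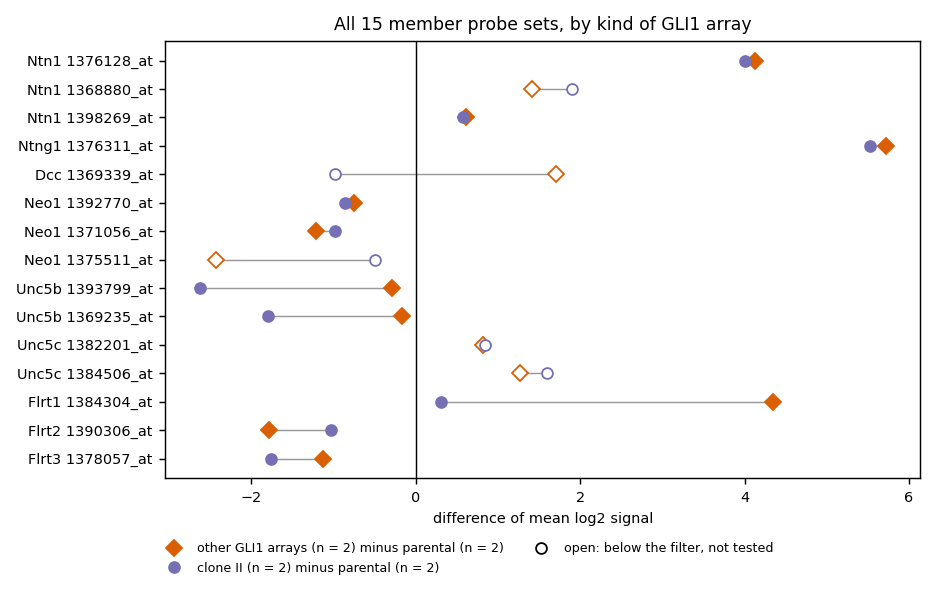
Difference of mean log2 signal from the 2 parental arrays (horizontal axis) for all 15 member probe sets, with the other GLI1 arrays as diamonds and clone II as circles; open points lie below the filter, and both differences share the parental arrays. The points of Ntn1 1376128_at nearly coincide (4.12 and 4.00), while those of Flrt1 lie far apart (4.35 and 0.30), as do those of Unc5b 1393799_at (-0.29 and -2.63).

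The epithelial markers Krt8 and Epcam, like Flrt1, were higher on the other GLI1 arrays than on clone II. Krt8 signal was 4284 where no clone is named, 6092 in clone I and 539 and 599 in clone II, against 1085 and 1355 in parental cells. Epcam gave 2177, 1912, 601 and 431 on the GLI1 arrays and 437 and 485 on the parental arrays. Clone II lay below both parental arrays for Krt8, unlike Flrt1, and overlapped them for Epcam. The other 6 epithelial markers were below the filter. Both clone II arrays lay below both other GLI1 arrays for 6 of all 8 markers, and overlapped them for the remaining 2, Krt18 and Pax8. They also lay below them for 4 of 5 fibroblast markers, 1 of 4 immune markers, 1 of 5 neuronal and glial markers and 0 of 3 endothelial markers. Apart from Krt8 and Epcam, the epithelial markers in this order were dim on average. Cdh1 gave 601 where no clone is named and 200 in clone I, against 20.8 and 127 in clone II. In the same order Pax2 gave 242 and 437 against 81.8 and 200, but its parental arrays alone gave 474 and 84.9. Krt19 gave 147.6 and 149.4 against 119.5 and 7.8, and Cdh16 gave 47.9 and 50.8 against 45.0 and 41.8. How often all tested probe sets show this order was not computed, so nothing is read from these counts. Over all 8 kidney epithelial markers, the summed signal was 1585 to 9077 on GLI1 arrays and 2320 to 2593 on parental arrays. The part of these markers in the Flrt1 and Unc5b differences was not tested.

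Genes of the most similar pattern were found by the root mean square difference over the 6 arrays, each probe set centred on its own mean, among 13948 tested probe sets of other named genes. Nearest to Ntn1 were Nrarp, a feedback regulator of Notch signalling (0.24 log2 units), the transcription factor gene Batf3 (0.29) and Hhip (0.30), which encodes a Hedgehog-binding membrane protein and is a known Hedgehog target. Nearest to Flrt1 were the homeobox gene En2 (0.61), the growth factor gene Mdk (0.66) and the vitamin A transporter gene Stra6 (0.71). En2 had a log2 signal of 11.15 where no clone is named, 10.08 in clone I and 7.57 and 7.41 in clone II, against 7.59 and 7.70 in parental cells. Nearest to Unc5b were Map1b, a microtubule-associated protein gene (0.40), the ephrin receptor gene Ephb3 (0.43) and the lipid transporter gene Abcg1 (0.46). For Ntng1 the nearest were the zinc finger gene Zfp423 (0.62), the prostacyclin synthase gene Ptgis (1.13) and Tmem119 (1.14). With 6 arrays in 2 groups genes can share such patterns, and how many lie about as near was not counted, so the distances are a description.

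**Figure D3:**
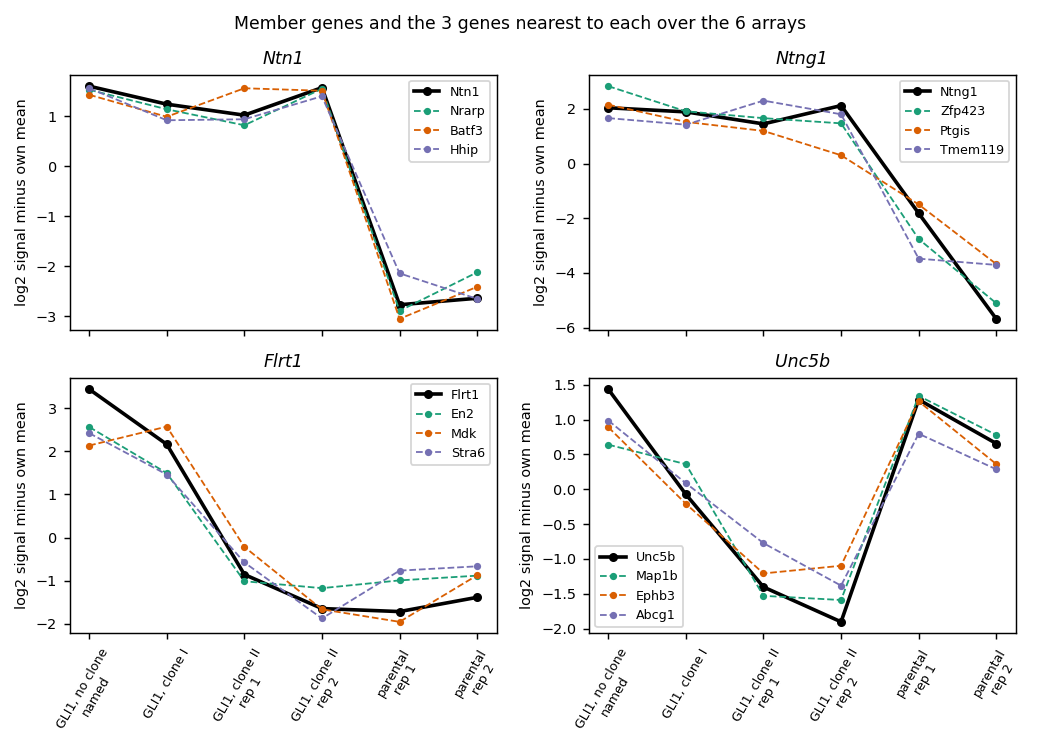
Log2 signal minus each probe set's own mean (vertical axis) on the 6 arrays (horizontal axis) for Ntn1, Ntng1, Flrt1 and Unc5b (black) and the 3 named genes nearest to each (colours); lines only join the points of a gene. Ntn1 and its neighbours separate GLI1 from parental arrays, whereas Flrt1 and its neighbours are high on the first 2 GLI1 arrays, and Unc5b and its neighbours are lowest on the clone II arrays.

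Genes that act with the members were taken from a list of 48 ligands, receptors and intracellular effectors drawn up for their known roles but with earlier results of these arrays known, so their p-values are not independent support. Of these, 42 were measured and 33 passed the filter. Between GLI1 and parental cells 1 rose, 5 fell and 27 did not pass (limma); the background shares were again 5.84% and 7.25%. Their median log2 difference was -0.25, against 0.005 over all tested probe sets. At an unadjusted p under 0.05, 5 were higher and 7 lower, where 14.2% and 14.7% of all tested probe sets were. Every partner gene that passed is named; those named without a call were picked after their values were seen.

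Among 3 tested ligands and extracellular partners 1 rose and 0 fell (2 and 0 at an unadjusted p under 0.05, limma). Rgma, which encodes a repulsive guidance molecule that binds neogenin, had a signal of 8767 to 12059 on GLI1 arrays and of 5859 and 5608 on parental arrays. Its log2 rise was 0.83 (SE 0.18, adjusted p = 0.0206, limma), with no overlap between groups. The related Rgmb gave 0.81 (SE 0.25, adjusted p = 0.0618). Both lay above the parental arrays on all GLI1 arrays, where Neo1 lay below.

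Among 7 tested receptors and binding partners 0 rose and 1 fell (0 and 2 at an unadjusted p under 0.05, limma). Adgrl2, which encodes a latrophilin, a class of receptor that FLRT proteins bind, fell by 0.75 (SE 0.21, adjusted p = 0.0437), from a signal of 9376 and 7064 on parental arrays to 4226 to 5782 on GLI1 arrays. Its other tested probe set did not pass (log2 -1.30, adjusted p = 0.0938). The latrophilin gene Adgrl1 gave -0.60 (0.313), the FGF receptor genes Fgfr1 0.02 (0.956) and Fgfr2 -0.46 (0.502), and Mcam, a cell adhesion receptor gene, -1.69 (0.054). The NGL-1 gene Lrrc4c, partner of netrin-G1, lay below the filter and had no test, as did Unc5a and Robo1. Lrrc4c gave 139 where no clone is named, 146 in clone I and 493 and 401 in clone II, against 185 and 152 in parental cells. Robo1 gave 152 to 294 on GLI1 arrays and 473 and 525 on parental arrays. Unc5a gave 94.5 to 327 on GLI1 arrays and 7.8 and 106 on parental arrays, which overlap.

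Of the 23 tested effectors 0 rose and 4 fell (3 and 5 at an unadjusted p under 0.05, limma). Rnd3, which encodes a protein that opposes actin stress fibres, fell from a signal of 23051 and 11779 on parental arrays to 1691 to 5265 on GLI1 arrays. Its log2 difference was -2.26 (SE 0.44, adjusted p = 0.0114), and its other 2 tested probe sets fell too, at -2.39 (0.000689) and -2.25 (0.0102). Dapk1, which encodes a death-promoting kinase that acts below UNC5 receptors, fell by 3.09 (SE 0.82, adjusted p = 0.0401). Its call was lost with no filter (adjusted p = 0.0553, limma), without the intensity trend (0.0659) and without clone II replicate 1 (0.0671). Its signal was 533 where no clone is named, 545 in clone I and 158 and 61.2 in clone II, against 1940 and 1989 in parental cells. Pak1, a kinase gene of the Rac and Cdc42 pathway, fell by 0.66 (SE 0.17, 0.0319) and Trio, an exchange factor gene for Rac, fell by 0.70 (SE 0.20, 0.0496). A second Trio probe set also fell (-0.76, 0.0458), and a second one of Pak1 did not pass (-0.49, 0.319). Rac1 (0.31, 0.237), Nck1 (-0.06, 0.902) and Src (0.03, 0.951) did not pass. With parental replicate 1 left out no partner gene passed (2 higher and 5 lower at an unadjusted p under 0.05), and without parental replicate 2 Rnd3 alone did. With median centring Rgmb (0.97, adjusted p = 0.0275) and Mcam (-1.53, 0.0452) were called too, and Adgrl2, Pak1 and Trio lost their calls. Without the intensity trend Rnd3 alone kept its call, and with no filter Rgma, Pak1 and Rnd3 kept theirs.

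Ablim1, which encodes an actin-binding protein related to a worm effector of netrin signalling, was the partner gene called between clones, where 1 of 33 was lower in clone II and 0 were higher, against 0.113% and 0.0161% of all tested probe sets. At an unadjusted p under 0.05, 5 were lower and 0 higher, against 5.01% and 3.64%. Its signal was 2028 where no clone is named, 1737 in clone I and 313 and 212 in clone II, against 1180 and 1123 in parental cells. Clone II minus the other GLI1 arrays gave a log2 difference of -2.87 (adjusted p = 0.0371, limma), and clone II lay below all other arrays. The call was lost with any 1 array left out (adjusted p from 0.05 without clone I to 0.175 when the array of unnamed clone was dropped) and also with no filter (0.0515), without the intensity trend (0.0553) and without both arrays of highest GAPDH ratio (0.126). It was kept with median centring (0.0215), quantile normalization (0.0425) and 32 added before the log (0.0324).

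**Figure D4:**
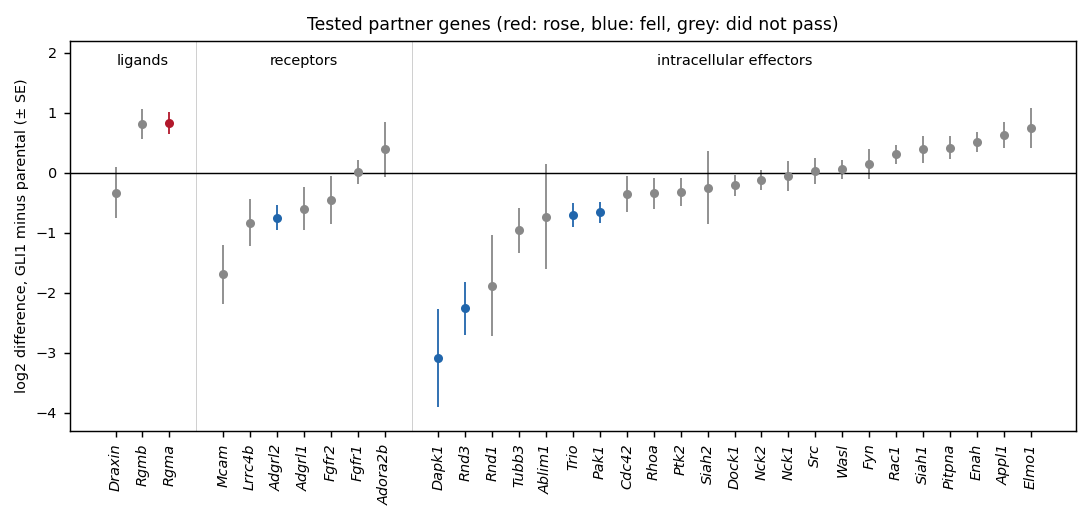
Log2 difference between GLI1 (n = 4) and parental (n = 2) arrays (vertical axis, bars are SE) for the 33 tested partner genes (horizontal axis), in 3 groups by role. Rgma rose, Adgrl2, Dapk1, Rnd3, Trio and Pak1 fell, and the other 27 did not pass.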

How the data were processed

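The deposited table holds linear intensity values (signal) of 6 Affymetrix rat arrays, made by the authors with MAS5 per the submitters' processing notes; the software version and genome build are not given in the sources used here. Every column matched the labels of 1 sample. Of 31099 probe sets 57 controls were left out. A platform annotation gave 20826 of the others 1 gene symbol, 436 several and 9780 none; 20758 were matched to RefSeq (GRCr8) by gene ID and 0 symbols changed.

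Signals under 1 were set to 1 and log2 was taken. Probe sets with a mean log2 signal above the 40th percentile were tested (18625) with limma 3.58.1 in R 4.3.3 (lmFit, then eBayes with an intensity trend). The same fit was also run on simulated data, where only the median error of the estimated differences was checked. GLI1 against parental arrays used 2 groups, and the contrast of clone II with the other GLI1 arrays came from a fit of 3 groups. P-values were adjusted by Benjamini-Hochberg over all tested probe sets, with a threshold of 0.05.

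Named were all 9 members, each gene's probe set of highest mean being its main one, every partner gene called, and, for Ntng1 and each tested member spanning at least 3 log2 units, the 3 genes of nearest pattern. Members and lists were chosen with earlier results of these data known. Alternatives were median centring, quantile normalization, 32 added before the log, no filter or a filter at the 60th percentile, no trend, the replicate number as a block, each array left out, and both arrays of highest GAPDH ratio left out. The number of arrays limits the precision.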

Additional observations from a re-analysis of the deposited data

Results flagged for a closer look

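Flrt1 (1384304_at) differed between the clones: log2 signal was lower by 4.05 in clone II than in the other GLI1 arrays (difference -4.05, adjusted p = 0.0436, limma). The gene was tested only through the 2 arrays on which it is high, and its adjusted p was 0.0501 to 0.131 in the 8 settings in which the call was lost. Trio (1392972_at) had 1 GLI1 array apart from the other 3: clone I replicate 2 had a signal of 8370, against 11118 to 11776, and its gap to the nearest array was 0.831 of the range in log2 signal, above Dixon's critical value for 4 samples. It was 1 of 21 probe sets examined in this way, and chance marks about 1 in 20 groups.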

How the results depend on the processing

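Counts of called genes are from limma, with counts at an unadjusted p under 0.05 in parentheses beside 0; for values that changed sign or counts that moved, the cause was not tested unless named. Member genes called higher in GLI1 cells were 2 in every setting but the 60th percentile filter, which removed Ntng1 and left 1. Member genes called lower were 0 (2) without both arrays of highest GAPDH ratio and 0 to 4 with 1 array left out, 0 (3) without parental replicate 1 and also 0 (3) without parental replicate 2. Member genes called lower in clone II were 0 with quantile normalization (2), no filter (3), the 60th percentile filter (1), no trend (2) and without both arrays of highest GAPDH ratio (2), and 0 to 2 with 1 array left out. Partner genes called higher were 2 with median centring, 0 without the trend (5), 0 without both GAPDH arrays (2) and 0 to 1 with 1 array left out. Partner genes called lower were 3 with median centring, 2 with no filter, 1 without the trend, 0 without both GAPDH arrays (5), 8 when every tested probe set was counted and 0 to 6 with 1 array left out.

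The clone difference of Neo1 was 0.02 with median centring, -0.38 to 0.15 with 1 array left out and 0.24 for probe set 1371056_at. That of Ntn1 was 0.01 with median centring, -0.40 to 0.15 with 1 array left out and 0.15 without both GAPDH arrays; that of Ntng1 was -0.52 to 0.16 and 0.16. Between GLI1 and parental cells no tested member difference changed sign. Median centring moved the median log2 difference of all tested probe sets from 0.005 to 0.165.

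With a replicate block, 2 member genes were called lower in clone II, the second being Unc5b (adjusted p = 0.0172). Deviations of same-numbered arrays correlated at 0.104, 0.0681 and 0.321, all positive, and the numbers were not taken as pairs in the main fit. Replicate 1 also had the higher GAPDH ratio among the other GLI1 arrays (2.09 against 1.45), clone II (7.52 against 1.39) and parental arrays (3.66 against 1.43). Replicate number and this ratio thus cannot be told apart. With 2 parental arrays and 2 clone II arrays, each parental array sets much of the result, and dim probe sets such as Dcc and Unc5c cannot be read.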
